A study of Mus musculus with 40 samples.

Results

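Hypothalamic neurons were described here by 6 genes that mark whether a neuron releases glutamate or GABA: Slc17a6, Slc17a7, Slc17a8, Slc32a1, Gad1 and Gad2. The genes were taken by symbol from the deposited table of raw counts, and all 6 of 6 were found among its 23955 gene symbols. Bulk hypothalamus of untreated mice was sequenced as stranded mRNA, with 1 library for each of 40 strains. The strains were 36 BXD lines, the reciprocal hybrids B6D2F1 and D2B6F1, and the parents C57BL/6J and DBA/2J. BXD lines are recombinant inbred mice bred from crosses of those parents, and each line's library pooled RNA from 3 to 6 hypothalami. No strain was sequenced more than once, so tests compare strains with the spread between strains, and variation between animals or dissections of a strain was not measured. In bulk tissue, fewer cells of a type and less RNA per cell cannot be told apart.

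A neuron that releases glutamate must load it into synaptic vesicles, and a protein of the vesicular glutamate transporter family does this. Slc17a6 encodes VGLUT2, the main form in hypothalamus, thalamus and brainstem. Slc17a7 encodes VGLUT1, the main form in cortex and hippocampus, and Slc17a8 encodes VGLUT3, found in scattered neurons that often release a second transmitter as well. GABA is made from glutamate by glutamate decarboxylase, which exists as GAD67, encoded by Gad1, and GAD65, encoded by Gad2. Slc32a1 encodes VGAT, which loads GABA and glycine into vesicles. The hypothalamus holds both glutamatergic and GABAergic neurons, and so both sets of genes are transcribed there.

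The upstream DNA of 4 members is shown because their transcripts gave the closest positive and negative relations described below: Gad1 and Gad2, which rose together, and Slc32a1 and Slc17a6, which ran opposite to each other. Each window is the 250 bases before the annotated start in RefSeq on GRCm38.p6, read on the gene's plus strand. The windows are chr2:70561879-70562128 for Gad1, chr2:22622077-22622326 for Gad2, chr2:158610508-158610757 for Slc32a1 and chr7:51621580-51621829 for Slc17a6. Capitals mark a match, on either strand, to the CCAAT box (CCAAT), the GC box (GGGCGG), the TATA box (TATAAA), the core of homeodomain sites (TAATTA) or the cyclic AMP response element (TGACGTCA).
Gad1: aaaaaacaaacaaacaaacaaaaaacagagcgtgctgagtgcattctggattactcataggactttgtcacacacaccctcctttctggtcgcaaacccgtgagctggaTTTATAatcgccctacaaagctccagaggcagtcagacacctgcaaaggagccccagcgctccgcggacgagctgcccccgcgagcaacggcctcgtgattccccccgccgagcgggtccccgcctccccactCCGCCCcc
Gad2: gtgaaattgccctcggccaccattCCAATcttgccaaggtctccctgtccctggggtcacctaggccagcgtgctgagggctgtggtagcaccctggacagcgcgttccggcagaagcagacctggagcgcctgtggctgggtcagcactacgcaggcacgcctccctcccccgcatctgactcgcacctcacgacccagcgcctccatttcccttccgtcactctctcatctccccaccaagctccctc
Slc32a1: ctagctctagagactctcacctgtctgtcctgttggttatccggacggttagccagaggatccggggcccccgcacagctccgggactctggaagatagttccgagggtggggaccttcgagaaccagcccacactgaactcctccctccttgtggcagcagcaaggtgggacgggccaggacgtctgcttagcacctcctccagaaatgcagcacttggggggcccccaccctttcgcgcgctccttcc
Slc17a6: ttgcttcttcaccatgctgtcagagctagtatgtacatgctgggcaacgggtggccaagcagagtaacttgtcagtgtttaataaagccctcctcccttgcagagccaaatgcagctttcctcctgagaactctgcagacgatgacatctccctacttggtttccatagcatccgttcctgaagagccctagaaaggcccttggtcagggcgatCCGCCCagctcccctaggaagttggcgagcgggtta

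Gad1 held a TATA box on the reverse strand that began 141 bases before the start and a GC box on the reverse strand at 8 bases before it. Gad2 held a CCAAT box at 226 bases before the start, Slc17a6 held a GC box on the reverse strand at 36 bases, and Slc32a1 held none of the 5 motifs. Slc17a7 held 3 GC boxes, of which 2 overlap, on chromosome 7, and Slc17a8 on chromosome 10 held none. Among 32841 promoter windows of that length, 33.9% held the CCAAT box, 32.7% the GC box, 12.4% the TATA box, 4.84% the homeodomain core and 1.55% the cyclic AMP element. No motif was common to the windows of Gad1 and Gad2. GC content was 64% for Gad2, 62.4% for Slc32a1, 58.0% for Gad1 and 53.2% for Slc17a6, beside a median of 52.4% for all windows.

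Library totals ran from 12.2 M counts in BXD55 to 40.4 M in BXD51. Levels are in CPM, read counts scaled to each library's total after TMM normalization, and log2 values carry a prior count of 2. All 10 genes listed as hypothalamus markers were detected in every library, among them Pmch, the melanin-concentrating hormone, at 67.4 to 159 CPM and Nkx2-1, a hypothalamic patterning factor, at 20.9 to 43 CPM. Levels of genes that mark neighbouring tissue were unequal between libraries. The 14 striatal and septal genes summed to 2110 CPM in BXD90, against a median of 716 CPM over the lines, and the 8 choroid plexus genes to 885 CPM in BXD32, against a median of 46.9 CPM. BXD101 had the highest sum of the hypothalamus markers, 731 CPM, beside a median of 440 CPM. A further library property, called the GC index here, is the log2 deviation of a library's genes per 10 percentage points of transcript GC content. It ran from -0.308 in BXD43, -0.289 in BXD32 and -0.219 in BXD63, past -0.124 in BXD64, to 0.163 in BXD67.

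Scaled to exon length, the genes of GABA synthesis led. Gad2 averaged 132 ± 12.8 CPM per kb of annotated exon, Gad1 76.9 ± 6.84, Slc32a1 65.7 ± 9.83 and Slc17a6 63.1 ± 6.09 (SD, n = 36 lines). The other vesicular glutamate transporters were far lower. Slc17a7 averaged 2.09 ± 2.47 CPM per kb and Slc17a8 1.25 ± 0.289 CPM per kb (SD, n = 36). Gad2 stood above Gad1 in 36 of 36 lines, Gad1 above Slc32a1 in 33, and Slc17a6 above Slc17a7 in 36. Neighbours that did not keep an order were Slc32a1 and Slc17a6, with Slc32a1 higher in 21 of 36 lines, and Slc17a7 and Slc17a8, with Slc17a7 higher in 20. Exon lengths are those of GENCODE vM21, so an unused exon lowers a gene's scaled level.

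**Figure D1:**
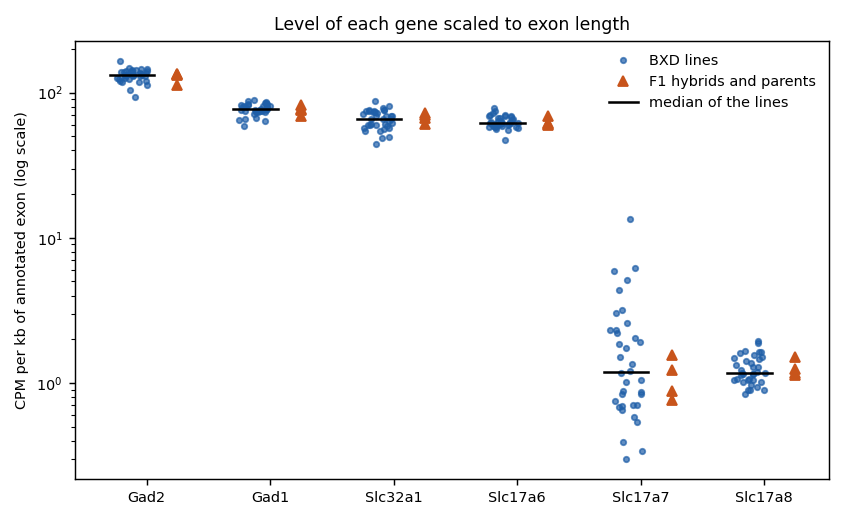
Level of each gene in CPM per kb of annotated exon on a log axis; blue points are the 36 BXD lines, the black bar their median, and orange triangles the 4 F1 hybrid and parental libraries. Gad2 is highest (132 CPM per kb on average over the lines), and Slc17a7 spans the widest range.

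Among the glutamate transporters, Slc17a6 spanned a 1.67-fold range over the lines and Slc17a7 a 44.9-fold one. Slc17a6 ran from 256 CPM in BXD90 through a median of 335 CPM to 426 CPM in BXD32, and averaged 341 ± 32.9 CPM (SD, n = 36). It read 331 CPM in B6D2F1, 373 in D2B6F1, 323 in C57BL/6J and 326 in DBA/2J. All 4 values lay inside the range of the lines. Its SD over lines was 0.139 on the log2 scale, beside a counting SD of 0.0166, and 55.5% of the 14487 genes compared varied more.

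Slc17a7 ran from 1.62 CPM in BXD29 through a median of 6.41 CPM to 72.6 CPM in BXD90, and averaged 11.3 ± 13.3 CPM (SD, n = 36). BXD32 at 33.4 CPM, BXD56 at 31.8, BXD45 at 27.6 and BXD51 at 23.7 followed, and no other line passed 20 CPM. The spread over lines had an SD of 1.25 log2 units beside a counting SD of 0.13, and it ranked 67 from the most variable of 14487 genes. B6D2F1 had 6.6 CPM (Poisson 95% interval 5.66 to 7.65), D2B6F1 4.71 (4 to 5.52), C57BL/6J 8.35 (7.26 to 9.56) and DBA/2J 4.1 (3.36 to 4.95). These intervals cover counting error only.

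Slc17a8 was scarce and moderately variable. It ran from 3.94 CPM in BXD67 through a median of 5.56 to 9.25 CPM in BXD64, and averaged 5.92 ± 1.36 CPM (SD, n = 36). Its log2 SD was 0.317, with a counting SD of 0.127 from as few as 59 reads in a library, so counting made up more of its spread than for any other member. B6D2F1 had 7.16 CPM, D2B6F1 5.33, C57BL/6J 5.53 and DBA/2J 5.89.

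Of the GABA genes, Slc32a1 varied most. It ran from 124 CPM in BXD32 through a median of 185 to 245 CPM in BXD67, and averaged 184 ± 27.5 CPM (SD, n = 36; log2 SD 0.222, counting SD 0.0227). B6D2F1 had 187 CPM, D2B6F1 169, C57BL/6J 202 and DBA/2J 195. An antisense gene, Gm14205, shares exon bases with Slc32a1 in GENCODE, and whether strand was used in counting is not given in the sources used here.

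The decarboxylases shared their extremes. Gad1 ran from 453 CPM in BXD101 through a median of 587 to 680 CPM in BXD43, and averaged 587 ± 52.2 CPM (SD, n = 36). Gad2 ran from 550 CPM in BXD101 through a median of 782 to 975 CPM in BXD43, and averaged 775 ± 75.1 CPM (SD, n = 36). BXD101 was thus lowest and BXD43 highest in both. Gad1 read 588 CPM in B6D2F1, 529 in D2B6F1, 578 in C57BL/6J and 624 in DBA/2J. Gad2 read 787 CPM in B6D2F1, 665 in D2B6F1, 776 in C57BL/6J and 787 in DBA/2J. D2B6F1 was the lowest of these 4 libraries for both genes. The log2 SD over lines was 0.133 for Gad1 and 0.146 for Gad2, beside counting SDs of 0.0126 and 0.011, near the middle of all genes: 59.2% and 51.9% varied more.

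**Figure D2:**
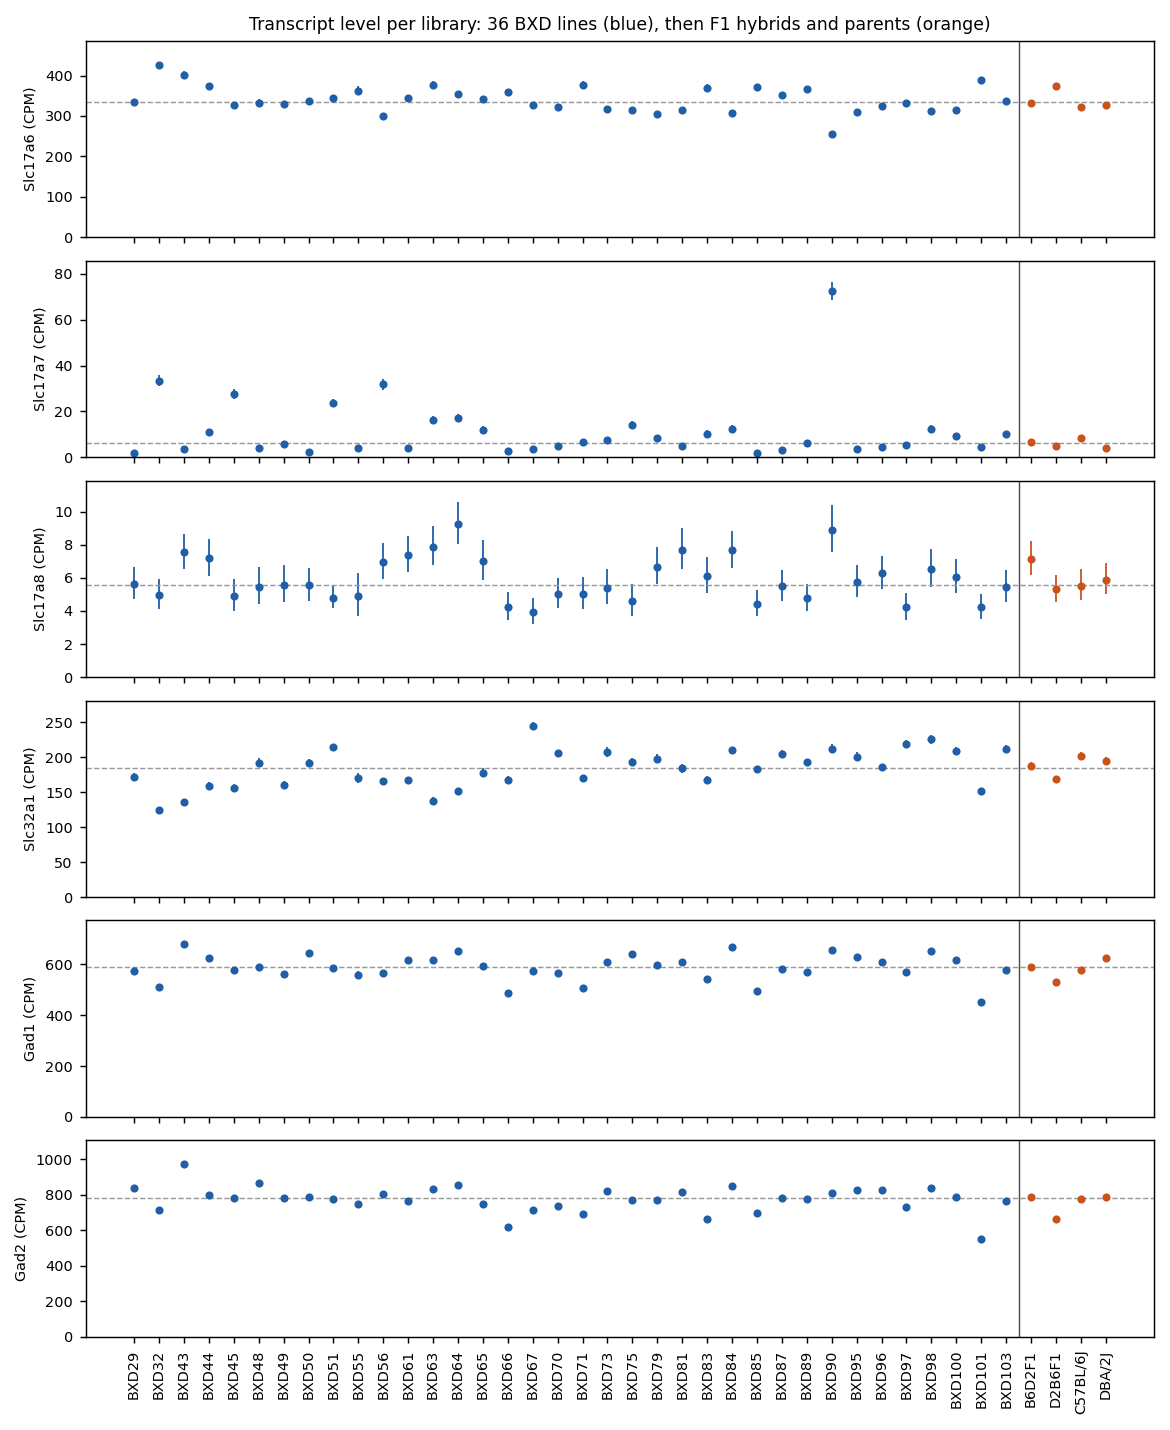
Level of each gene in CPM (axes from 0) in each library, with the 36 BXD lines in blue at the left and the F1 hybrids and parents in orange at the right; bars are Poisson 95% intervals, where wider than the point, and the dashed line is the median of the lines. BXD90 stands out at 72.6 CPM for Slc17a7 and BXD101 is lowest for both Gad1 and Gad2.

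The design allows the 36 BXD lines to be set against the 4 hybrid and parental strains, and in this comparison no member passed the test. In edgeR's quasi-likelihood test with Benjamini-Hochberg adjustment, 0 of 16198 genes passed an adjusted p of 0.05 (0%). At an unadjusted p under 0.05 there were 163, and DESeq2 also called 0, with 155 unadjusted. The log2 difference of BXD lines from the other strains was 0.93 ± 0.73 (SE) for Slc17a7 and lay between -0.03 and 0.05 for the other members, with SEs of 0.07 to 0.16. Adjusted p was 0.9997 for each member in that edgeR fit. The median over all genes was 0.003.

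Setting the hybrids B6D2F1 and D2B6F1 against the 38 inbred strains gave the same outcome. EdgeR called 0 of 16434 genes (0%), with 109 at an unadjusted p under 0.05, and DESeq2 called 0 with 100. Without D2B6F1, 1 gene passed (0.00597%), Ide, the insulin-degrading enzyme. Slc17a7 differed by -0.96 ± 1.02 (SE, log2), Gad2 by -0.10 ± 0.10, Gad1 by -0.08 ± 0.09, Slc17a6 by 0.05 ± 0.09, Slc32a1 by -0.05 ± 0.15 and Slc17a8 by 0.08 ± 0.22. The edgeR adjusted p was 1 for each. The hybrids themselves differed: B6D2F1 was above D2B6F1 by 0.243 log2 units for Gad2 (counting SE 0.014), 0.152 for Gad1, 0.149 for Slc32a1, 0.477 for Slc17a7 and 0.421 for Slc17a8, and the difference was -0.174 for Slc17a6. With 1 library each, these are differences between libraries and have no replicate check.

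Between the parents, C57BL/6J exceeded DBA/2J by 1.01 log2 units for Slc17a7 (counting 95% interval 0.676 to 1.35). With at least 1 log2 unit and 5 CPM as the size named, 79 of 12166 genes were as far apart (0.649%), and Slc17a7 was the 1 member among them. For Gad1 the difference was -0.112 log2 units (counting SE 0.0164). Slc17a6, Slc17a8, Slc32a1 and Gad2 had differences whose counting intervals held 0. No replicate check exists for these pairs, and both parents lay inside the range of the BXD lines for each member.

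Over the 36 lines, Gad1 and Gad2 rose together. Pearson's r of their log2 levels was 0.856 and Spearman's rho 0.75 (permutation test, adjusted p = 0.00015 over 15 pairs for r), and r was 0.767 without BXD101 and BXD66, the lines farthest from the median of Gad1. The ratio of Gad1 to Gad2 was narrow, from 0.681 in BXD48 through a median of 0.759 to 0.835 in BXD75, and 0.745 to 0.795 in the F1 hybrids and parents. Its SD over lines was 0.076 log2 units, above the counting SD of 0.0167.

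Slc17a8, although a glutamate transporter, correlated with both decarboxylases. Its r was 0.669 with Gad1 (rho 0.675, adjusted permutation p = 0.00025) and 0.612 with Gad2 (rho 0.658, adjusted permutation p = 0.0003). Without BXD64 and BXD90, the farthest lines in Slc17a8, r was 0.631 with Gad1 and 0.609 with Gad2. All 3 genes also moved with the library's exon-length index, the log2 deviation of its genes with exon length, at r = 0.538 for Slc17a8, 0.431 for Gad1 and 0.58 for Gad2 (rho 0.543, 0.404 and 0.569; adjusted permutation p = 0.00435, 0.0416 and 0.00297 over 132 relations). Without BXD43 and BXD32 these were 0.637, 0.547 and 0.624. With that index regressed out, r of Slc17a8 was 0.574 with Gad1 and 0.437 with Gad2 (adjusted permutation p = 0.000525 and 0.0126), and the part of the index in the relations was not tested further. With Slc17a7, r of Slc17a8 was 0.38 (adjusted permutation p = 0.0549), and with RLE size factors in place of TMM this p was 0.0481.

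Slc17a6 ran against Slc32a1 and Gad1. Its r was -0.663 with Slc32a1 (rho -0.594, adjusted permutation p = 0.00015; -0.6 without BXD90 and BXD32), -0.479 with Gad1 (rho -0.407, adjusted permutation p = 0.0102) and -0.32 with Gad2 (adjusted permutation p = 0.125). Without BXD90 and BXD32 the relation with Gad1 was -0.382 and no longer passed (adjusted permutation p = 0.0763). Without BXD43, BXD32 and BXD63 it was -0.626 (adjusted permutation p = 0.0006), so the call depended on which lines were left out. The ratio of Slc32a1 to Slc17a6 in CPM ran from 0.292 in BXD32 through a median of 0.562 to 0.831 in BXD90, and from 0.452 to 0.626 in the F1 hybrids and parents. Its SD of 0.332 log2 units was 11.8 times the counting SD. The log2 ratio also moved with the library GC index, at r = 0.74, and its SD was 0.223 with that index regressed out. After BXD32 the lowest ratios were 0.338 in BXD43 and 0.366 in BXD63, and these lines were also lowest in the GC index.

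Slc32a1 passed the test with neither decarboxylase: r was 0.246 with Gad1 and 0.0686 with Gad2 (adjusted permutation p = 0.223 and 0.694). It moved with the GC index of the library, at r = 0.803 (rho 0.64, adjusted permutation p = 0.00022 over 132 relations; 0.714 without BXD43 and BXD32; 0.651 without BXD43, BXD32 and BXD63). GC content of the longest transcript is 61.9% for Slc32a1, the highest of the 6 members, and 44.1% for Gad2. With the GC index regressed out of both genes, a step chosen after seeing the data, r of Slc32a1 became 0.683 with Gad1 and 0.704 with Gad2 (adjusted permutation p = 9e-05 for both). Without BXD43, BXD32 and BXD63, and with no regression, these were 0.364 (adjusted permutation p = 0.0492) and 0.266 (0.169).

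The same step left Gad1 with Gad2 at r = 0.866 and Slc17a8 with Gad1 at 0.658, and gave Slc17a6 an r of -0.663 with Gad1, -0.633 with Gad2, -0.529 with Slc32a1, -0.577 with Slc17a8 and -0.453 with Slc17a7 (adjusted permutation p from 9e-05 to 0.00838). By rank, Slc17a6 still passed with Gad1, Gad2 and Slc17a8. Its rho was -0.299 with Slc32a1 and -0.317 with Slc17a7, and neither passed (adjusted permutation p = 0.114 and 0.1). The GC index ran with the exon-length index at r = -0.845 and had an r of 0.0759 with the log2 library total (permutation p = 0.65). The log2 SD of Slc32a1 fell to 0.133 once the index was regressed out, against 0.222 before. Whether the index reflects library preparation, tissue or strain was not tested.

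**Figure D3:**
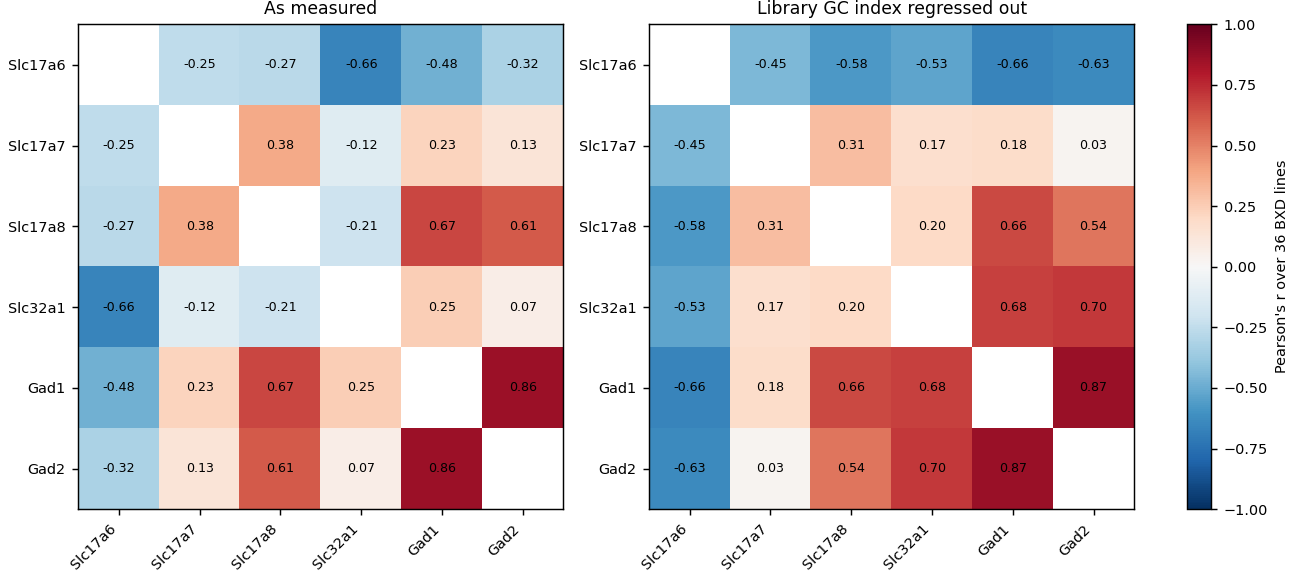
Pearson's r of log2 CPM for each of the 15 pairs of genes over the 36 BXD lines, as measured (left) and with the library GC index regressed out of both genes (right). Gad1 and Gad2 stay at 0.86 and 0.87, while Slc32a1 with Gad2 is 0.07 at the left and 0.70 at the right.

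**Figure D4:**
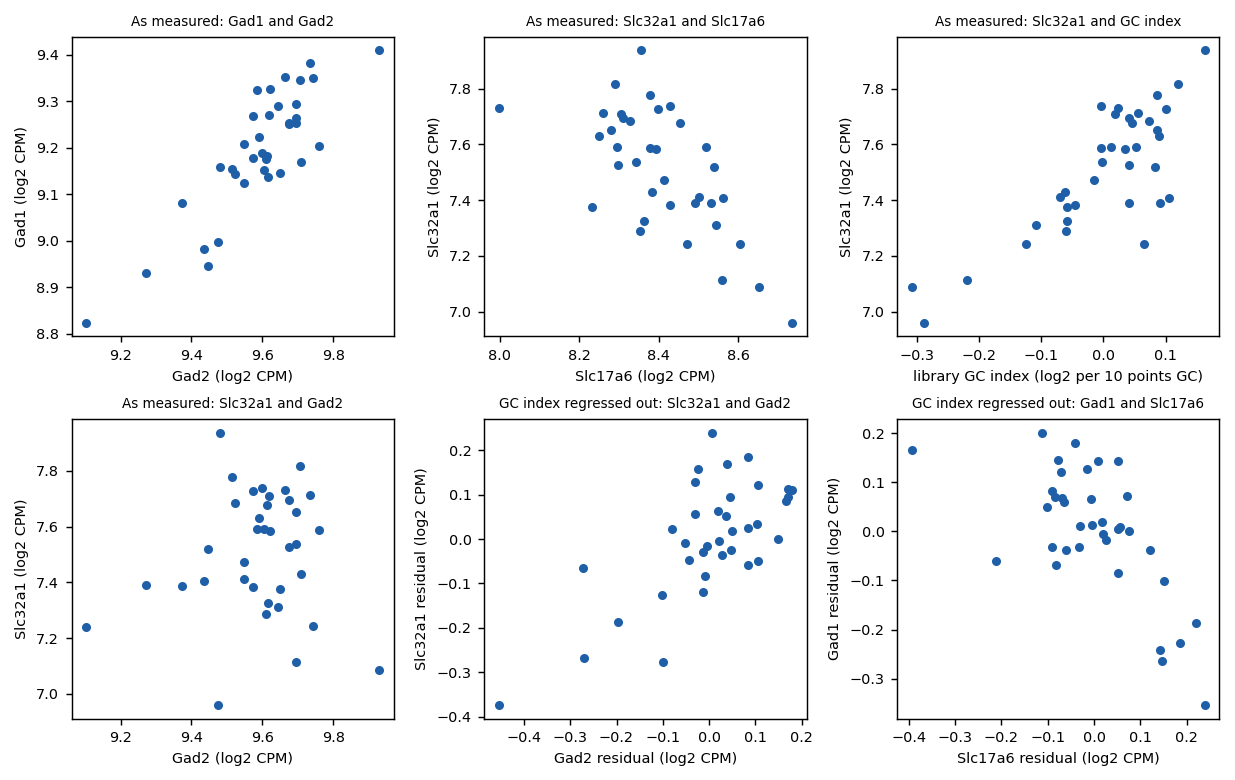
Line values of selected pairs in log2 CPM or residual log2 CPM, 1 point per BXD line (n = 36); the upper right panel sets Slc32a1 against the library GC index, in log2 units per 10 percentage points of GC. The 3 lines at the far left of that panel are BXD43, BXD32 and BXD63.

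To see which genes followed each member, the slope of every gene on the member's log2 level was fitted over the lines with edgeR, in log2 units per log2 unit of the member. Genes past an adjusted p of 0.05 numbered 2832 of 16145 for Slc17a6 (17.5%), 664 of 16081 for Slc17a7 (4.13%), 1664 of 15938 for Slc17a8 (10.4%), 6476 of 16081 for Slc32a1 (40.3%), 1068 of 16081 for Gad1 (6.64%) and 1809 of 16248 for Gad2 (11.1%). With the GC index as covariate the count for Slc32a1 was 180 (1.11%), and it was 1530 without BXD43, BXD32 and BXD63. Genes that rose with Slc32a1 had a median transcript GC of 56.3% and those that fell with it 43.9%, beside 49.9% for all. Genes that rose with Slc17a8, Gad1 or Gad2 had a median exon length of 8.64, 8.88 and 8.9 kb, and those that fell 3.11, 3.08 and 3.04 kb. With the exon-length index as covariate 200 genes followed Slc17a8, 341 followed Gad2 and 999 followed Gad1. For Slc17a6 the count was 1575 with the GC index and 2824 with the exon-length index. It was 583 without BXD43, BXD32 and BXD63, and 937 without BXD32 alone.

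Gad1 and Gad2 rose with GABAergic transcription factors and against hypothalamic glutamatergic genes. Of 11 GABAergic factors tested, 7 had a positive slope past the threshold on Gad1 and 7 on Gad2, and 0 a negative one (background 4.8% and 7.43% of genes positive). The median slope was 1.27 on Gad1 and 0.99 on Gad2, beside -0.03 and -0.02 for all genes. Lhx8, a factor of basal forebrain GABAergic and cholinergic neurons, had a slope of 2.98 ± 0.38 (SE) on Gad1 (edgeR adjusted p = 6.66e-06), Lhx6, which directs interneurons of the medial ganglionic eminence, 2.46 ± 0.38, and Dlx6, a homeobox factor of GABAergic lineages, 1.07 ± 0.16. Of 15 hypothalamic glutamatergic genes, 9 fell with rising Gad1 and 10 with rising Gad2, and 0 rose (background 1.84% and 3.71% negative). Nr5a1, the ventromedial nucleus factor SF-1, had a slope of -1.93 ± 0.30 on Gad1 and -1.66 ± 0.29 on Gad2, and Adcyap1, the neuropeptide PACAP, -1.24 ± 0.19 on Gad1.

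Hypothalamus markers fell with rising Gad1 and Gad2, and some striatal genes rose with Gad1. Of the 10 hypothalamus markers, 4 of which (Nr5a1, Hcrt, Sim1 and Oxt) are also in the glutamatergic list, 5 fell with rising Gad1, among them Nkx2-1 at -1.13 ± 0.19, and 6 with rising Gad2, 0 rising (background 1.84% and 3.71% negative). Agrp is also among the peptides and markers of GABA neurons, and Rax among the tanycyte genes, so both are counted again below. Rax was scarce, at 0.332 to 2.4 CPM over the libraries. Of 14 striatal and septal genes, 7 rose with Gad1 (background 4.8% positive). With Gad2 1 of the 14 rose, a share near its background of 7.43%. Tbr1, a factor of cortical glutamatergic neurons, rose with Gad1 at 2.40 ± 0.29 (edgeR adjusted p = 2.38e-06) and with Gad2 at 2.17 ± 0.28. The mean of the cortical and hippocampal list that holds Tbr1 passed by r with neither, at 0.336 and 0.284 (adjusted permutation p = 0.133 and 0.216). By rank it passed with Gad1 alone (rho 0.457 and 0.305, adjusted permutation p = 0.0313 and 0.198). The mean level of the hypothalamus markers correlated with Gad1 at r = -0.523 and Gad2 at -0.634 over the lines (rho -0.407 and -0.543, adjusted permutation p = 0.0068 and 0.000495). It also did with Slc17a8 at -0.58 and Slc17a7 at -0.425 (rho -0.506 and -0.4, adjusted permutation p = 0.0017 and 0.0455). With Slc17a6 and Slc32a1 its r was 0.0791 and 0.364, and neither passed (adjusted permutation p = 0.749 and 0.103). The part of these markers in the slopes was not tested. Without BXD101, the line lowest in Gad1 and highest in these markers, 500 genes followed Gad1 in place of 1068.

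Among 11 peptides and markers of GABA neurons, 0 rose with Gad1 and 2 fell, Vip and Agrp, while Vip, Agrp and Gal fell with Gad2 (background 1.84% and 3.71% negative). Of 6 genes for breakdown and uptake of GABA, 1 passed the threshold: Aldh5a1, the succinate semialdehyde dehydrogenase of GABA breakdown, rose with Gad1, at 0.37 ± 0.09 (edgeR adjusted p = 0.0124), and with Gad2, at 0.38 ± 0.08 (background 4.8% and 7.43% positive). With the length index as covariate these slopes were 0.1762 and 0.1675 and no longer passed (edgeR adjusted p = 0.1317 and 0.2112). Among 14 genes of glutamate supply and uptake, Slc1a1, a neuronal glutamate carrier, rose with Gad1 (0.35 ± 0.09) and Gad2 (0.26 ± 0.08), and Slc1a6 fell with Gad2. These shares lie near the backgrounds of 4.8% and 7.43% positive and 3.71% negative.

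Striatal and septal genes fell with rising Slc17a6. Of 14 striatal and septal genes 13 fell and 0 rose (background 7.93% negative), with a median slope of -1.83 beside -0.01 for all genes. Of 11 cortical and hippocampal genes, 1 rose and 2 fell. Ppp1r1b, the striatal dopamine-signal protein DARPP-32, had -4.61 ± 0.54 (SE, edgeR adjusted p = 5.76e-07) and Adcy5, the main striatal adenylyl cyclase, -1.24 ± 0.14. Of 11 GABAergic factors 7 fell, including Dlx5 at -1.29 ± 0.19. Penk, the enkephalin precursor abundant in striatum, had -1.59 ± 0.25. It was the 1 gene that fell among 11 peptides and markers of GABA neurons, of which 2 rose. Over all 16145 genes, 1552 rose and 1280 fell. With the striatal list's mean as a covariate, the slope of Penk was 0.0719 and that of Ppp1r1b, itself in the list, -0.4047 (edgeR adjusted p = 0.8339 and 0.2946).

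Of 15 hypothalamic glutamatergic genes 4 rose with Slc17a6 and 0 fell (background 9.61% positive), among them Adcyap1 at 1.02 ± 0.21 and Foxb1, a mammillary body factor, at 1.21 ± 0.30. Pmch rose at 1.26 ± 0.27. With the striatal list's mean as a covariate, Foxb1 had 0.6898 and Pmch 0.7135, and neither passed (edgeR adjusted p = 0.2782 and 0.1868). Other vesicular transporters split. Slc18a2, which loads monoamines, rose at 1.03 ± 0.22, and Slc18a3, which loads acetylcholine, fell at -2.42 ± 0.36 (edgeR adjusted p = 1.68e-05). The mean striatal level correlated with Slc17a6 at r = -0.741 (rho -0.659, adjusted permutation p = 0.00022), and at -0.668 without BXD90 and BXD45, the farthest lines. With that mean regressed out of both genes, r of Slc17a6 with Slc32a1 was -0.732 and with Gad1 -0.252 (adjusted permutation p = 0.258). Whether the share of striatal tissue set the level of Slc17a6 was not tested.

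Slc17a7 rose with genes of cortex, hippocampus and striatum. Of 14 striatal genes 12 rose and 0 fell (background 2.94% positive, median slope 0.20 beside 0.00), and of 11 cortical and hippocampal genes 3 rose and 0 fell. Those 3 were Neurod2, a factor of cortical excitatory neurons, at 0.50 ± 0.05 (edgeR adjusted p = 4.24e-07), Slc30a3, the vesicular zinc transporter ZnT3, at 0.24 ± 0.04, and Neurod6 at 0.27 ± 0.05. Scn4b, a sodium channel subunit of striatal neurons, had 0.43 ± 0.05. The mean cortical level correlated with Slc17a7 at r = 0.814 (rho 0.749, adjusted permutation p = 0.00022; 0.742 without BXD90 and BXD51). Of 15 hypothalamic glutamatergic genes 2 fell, beside 191 of all 16081 genes: Trh, the thyrotropin-releasing hormone of hypothalamus, at -0.13 ± 0.03, and Fezf1. Of the 15, 0 rose, a share near the background of 2.94% positive.

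The count for Slc17a7 changed with the cortical list as a covariate and without BXD90. With the mean of the cortical list as a covariate, 1 gene (Slc7a8, 0.00619%) followed Slc17a7 in place of 664, and without BXD90 351 did. The genes named above for Slc17a7 were therefore no longer called with that covariate. Neurod2, Slc30a3 and Neurod6 are themselves in that list, and its mean correlated with Slc17a7 at r = 0.814. The fit could therefore not separate Slc17a7 from the list mean. The summed level of the cortical and hippocampal genes was 161 CPM in BXD90, the highest line, beside a median of 121 CPM and a lowest of 96.1 CPM in BXD101. The part of cortical or striatal tissue in the level of Slc17a7 was not tested.

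Slc17a8 and Slc32a1 completed the set. Of 15 hypothalamic glutamatergic genes 9 fell with rising Slc17a8 and 0 rose (background 3.12% negative), among them Otp, a neuroendocrine lineage factor, at -0.81 ± 0.16 and Barhl1 at -0.73 ± 0.15. With the length index as covariate Otp had -0.5696 and Barhl1 -0.5654, and neither passed (edgeR adjusted p = 0.1239 and 0.1063). With rising Slc17a8, 7 of 14 striatal genes rose (background 7.32% positive), with Drd1a, the D1 dopamine receptor, at 1.33 ± 0.29. Of 11 GABAergic factors 6 rose with Slc32a1 and 0 fell (background 19.9% positive), and 7 rose with the GC index as covariate, against a background of 0.613%. In the fit without the index, Dlx2 had a slope of 0.58 ± 0.09 (edgeR adjusted p = 7.04e-06). Pnoc, the nociceptin precursor, had 0.51 ± 0.10 and Oxt, oxytocin, 1.42 ± 0.36. With the GC index as covariate Dlx2 had 0.4746, Pnoc 0.4915 and Oxt 0.4031, and none of the 3 passed (edgeR adjusted p = 0.1071, 0.1377 and 0.7665). Oxt also failed with the length index (0.7145, edgeR adjusted p = 0.1877) and without BXD43, BXD32 and BXD63 (1.086, edgeR adjusted p = 0.07693).

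Non-neuronal and neighbouring cell types were counted in the same fits. Of 7 choroid plexus genes tested, Ttr, the transthyretin abundant in that tissue, and Kcne2 rose with Slc17a6, and Ttr, Kcne2 and Kcnj13 fell with rising Slc32a1 (background 9.61% and 20.4%). The mean choroid plexus level correlated with Slc32a1 at r = -0.413 (rho -0.096, adjusted permutation p = 0.0476 over 132 relations), and without BXD32 r was -0.152, so the relation rested on that line. With Slc17a6, highest in BXD32, r of that mean was 0.31 (rho -0.00592, adjusted permutation p = 0.172), and -0.00373 without BXD32. With Slc17a7 its r was 0.446 (rho 0.5, adjusted permutation p = 0.034), and 0.36 without BXD32. On Slc17a7, 2 of the 7 choroid plexus genes rose and 0 fell, beside 473 rising of all 16081 genes. Of 8 tanycyte and ependymal genes, Foxj1, Gpr50 and Rax fell with rising Gad1, Gad2 and Slc17a8 (background 1.84%, 3.71% and 3.12% negative), and Crym rose with Gad1 and with Slc17a8 (background 4.8% and 7.32% positive). Of 10 astrocyte genes, 1 fell with rising Gad1 (S100b) and 1 with rising Gad2 (Aldoc), beside the same negative backgrounds, and of 11 oligodendrocyte genes 0 passed for Gad1 and 0 for Gad2. The mean astrocyte level, however, ran against Gad1 at r = -0.471 and Gad2 at -0.565 (rho -0.426 and -0.467, adjusted permutation p = 0.0218 and 0.00176). Without BXD101 and BXD64 these were -0.295 and -0.407. Of 13 pan-neuronal genes, Syt1 alone passed for Gad1 and for Gad2, a share near the 6.64% and 11.1% of all genes. For Slc32a1, 5 of these 13 rose and 4 fell, beside 40.3% of all genes in either direction.

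**Figure D5:**
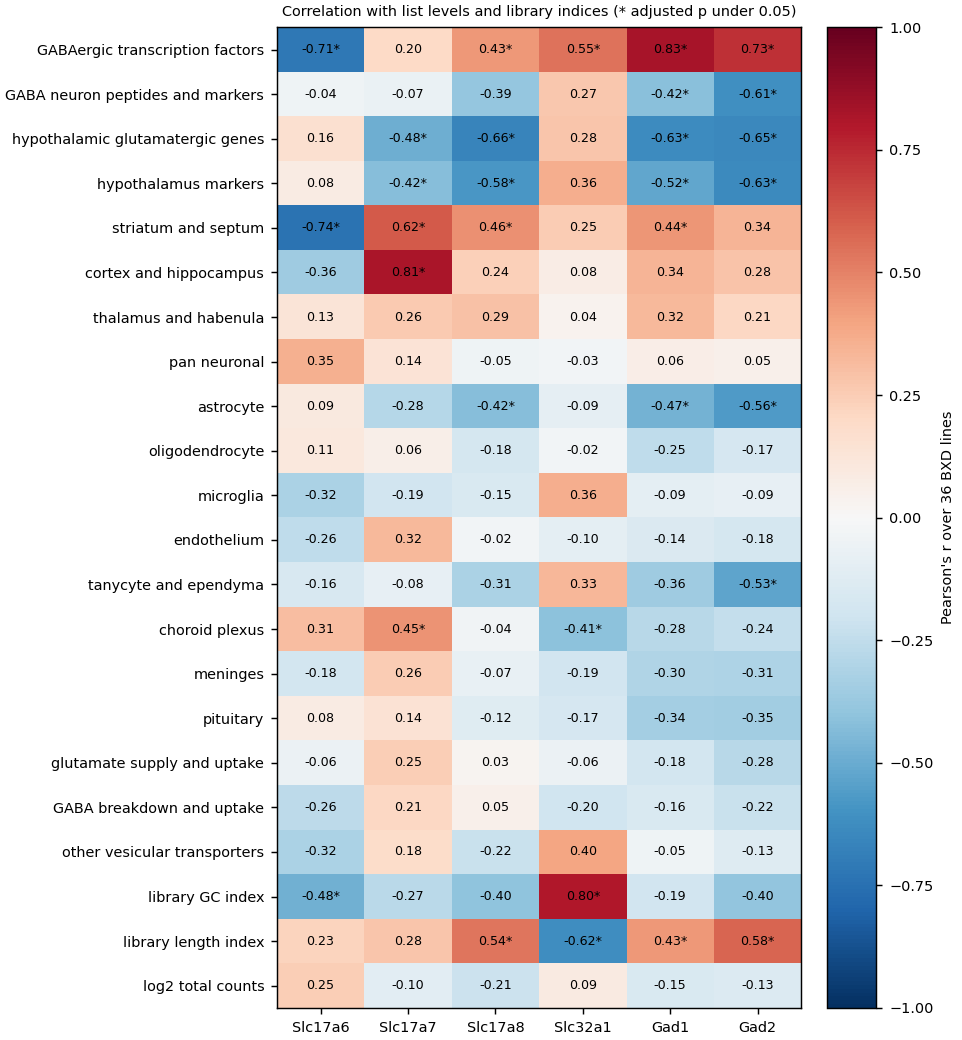
Pearson's r over the 36 BXD lines between the log2 level of each gene (columns) and the mean log2 level of 19 gene lists, 2 library indices and the log2 library total (rows); asterisks mark adjusted permutation p under 0.05 over 132 relations. Gad1 and Gad2 reach 0.83 and 0.73 with the GABAergic transcription factors, and Slc17a6 -0.74 with the striatal and septal list.

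Genes most like each member over the lines, with a mean of at least 5 CPM, are given as a description with Pearson's r over 36 lines, which also differ in library GC index and tissue markers. Gad2 was closest to Nrxn3, a presynaptic adhesion molecule (r = 0.886), Syt1, the synaptic vesicle calcium sensor (0.876), and Dlg2, a postsynaptic scaffold (0.834), and most opposed to Anxa5, a phospholipid-binding annexin (-0.815). Gad1 was closest to Syt1 (0.846), Tbr1 (0.839) and Lhx8 (0.818), and Epdr1 stood opposite (-0.759). Syt1 was therefore near the top for both decarboxylases. Slc32a1 was closest to Lingo1 (0.881), Map3k10 (0.879) and Dlgap3, a postsynaptic scaffold (0.869), and most opposed to Hif1a, the hypoxia-inducible factor subunit (-0.848).

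Slc17a6 was closest to Ebf3, a transcription factor of neuronal differentiation (r = 0.831), with Kcnj16, an inward-rectifier potassium channel, at 0.765, and most opposed to Pou3f1 (-0.875), a POU-domain factor, and Cpne5 (-0.865). Slc17a7 was closest to Kcnab1, a potassium channel subunit (0.806), and Ano3 (0.788), and most opposed to Gpld1 (-0.754). Slc17a8 was closest to Klhl24 (0.831), with Atp2b1, a plasma membrane calcium pump, at 0.784, and Crabp1, a retinoic acid binding protein, stood at -0.744. With the GC index as a covariate, Ebf3 kept a slope of 1.35 on Slc17a6 and Nrxn3 one of 0.844 on Gad2, whereas Hif1a on Slc32a1 moved to -0.191 (edgeR adjusted p = 0.125).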

How the data were processed

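Stranded mRNA (TruSeq) from bulk mouse hypothalamus was sequenced as 100-base single-end reads, 40 M planned per library, per the labels' protocols. TopHat2 2.0.8, HTSeq 0.5.4p3, DESeq and the assembly mm9 are named in the submitters' processing notes, without roles, an annotation or a strand setting. The authors deposited a table of whole-number read counts and a normalized signal, which is counts divided by a size factor per library. Of the normalized values, 100% were whole multiples of a library's unit within 0.01, so recovered reads served as an alternative.

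EdgeR 4.0.16 in R 4.3.3 was run on the counts of all genes (TMM, filterByExpr, robust quasi-likelihood, Benjamini-Hochberg adjusted p under 0.05), for BXD lines against the 4 other strains, F1 hybrids against the 38 inbred strains, and the slope of each gene on each member over the lines, a fit in which the member was left out of the genes tested. DESeq2 1.42.0 was the other tool. Scripts were tested on simulated data. Correlations used 100000 permutations of log2 CPM, two-sided, of which 1e-05 is the smallest p possible, adjusted over 15 pairs or 132 relations. Tests with each line left out in turn used fewer permutations. Parental differences had 1 library a side and were named at 1 log2 unit and 5 CPM. Intervals are exact Poisson intervals at 95% and, with PCR copies unmarked, cover counting error only.

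The members and gene lists were chosen with earlier results of these data known. Named genes came from a fixed rule, the 4 most and 2 least like each member by r and up to 3 genes of each list by lowest adjusted p, and the text gives some of them. Genes singled out beyond it (the single genes of small counts, Neurod6, Fezf1, Slc1a1, Slc1a6, Vip, Agrp, Gal and the non-neuronal markers) were chosen after their values were seen. Alternatives were other size factors, no filter, DESeq2, list means as covariates and lines left out; library GC and length indices were added after seeing the data. Transcript GC and exon length came from GENCODE vM21 on GRCm38.p6 and promoter windows from RefSeq on that build. Coordinates of the build used for counting were not used here.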

Additional observations from a re-analysis of the deposited data

How the results depend on the processing

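No paired analysis was possible because strains were sequenced once, and the replicate numbers only count libraries within a group in accession order. Both group comparisons stayed at 0 genes under other size factors, no filter, DESeq2 and the recovered reads; without D2B6F1 1 gene passed for the F1 hybrids. Leaving out 1 of the 4 hybrid and parental libraries turned the sign of small uncalled member differences. For BXD lines the ranges were -0.0193 to 0.0608 for Gad1 and -0.0121 to 0.0674 for Gad2 (negative without D2B6F1), -0.0104 to 0.0626 for Slc17a6 (negative without C57BL/6J, and -0.00493 without DBA/2J), -0.0627 to 0.0905 for Slc17a8 (positive without B6D2F1) and -0.0812 to 0.00302 for Slc32a1 (positive without C57BL/6J). For F1 hybrids they were -0.2203 to 0.0205 for Gad2, -0.0385 to 0.1375 for Slc17a6, -0.1475 to 0.2763 for Slc17a8 and -0.1261 to 0.0208 for Slc32a1, the sign turning without D2B6F1, or without B6D2F1 for Slc17a8. Counts of genes following a member kept within 1.5 times under RLE, no filter and DESeq2. They moved further with the cortical list (Slc17a6 4688, Slc17a7 1), the striatal list (Slc17a8 2687), the thalamic list (Gad1 705), the GC index (Slc17a6 1575, Slc17a8 772, Slc32a1 180, Gad2 1060) and the length index (Slc17a8 200, Slc32a1 2238, Gad2 341). They also moved without the member's highest line (BXD32 for Slc17a6, 937; BXD90 for Slc17a7, 351; BXD64 for Slc17a8, 937), without the lowest (BXD101 for Gad1, 500) and without BXD43, BXD32 and BXD63 (Slc17a6 583, Slc32a1 1530, Gad1 1711). Pairs newly past the threshold with the GC index regressed out were Slc17a6 with Slc17a7 (-0.453, by r but not by rho), Slc17a8 (-0.577) and Gad2 (-0.633), and Slc32a1 with Gad1 (0.683) and Gad2 (0.704). With the length index they were Slc17a6 with Slc17a8 (-0.478) and Gad2 (-0.568), and Slc32a1 with Gad1 (0.728) and Gad2 (0.673). Without those 3 lines they were Slc17a6 with Slc17a7 (-0.469), Slc17a8 (-0.431) and Gad2 (-0.554), Slc17a7 with Slc17a8 (0.458) and Gad1 (0.371), and Slc32a1 with Gad1 (0.364). Slc17a7 with Slc17a8 passed under RLE (0.387) and in the normalized table (0.389). Slc17a6 with Gad1 no longer passed with the striatal list regressed out (-0.252) or without BXD90 and BXD32 (-0.382). Signs turned with the striatal list for Slc17a6 with Slc17a7 (0.387) and Slc17a8 (0.111), Slc17a7 with Gad1 (-0.0648) and Gad2 (-0.104), and Slc32a1 with Gad2 (-0.0183), and for the slope of Penk on Slc17a6 (0.0719). With the GC index they turned for Slc32a1 with Slc17a7 (0.17), with Slc17a8 (0.202) and with the length index itself (0.177), with the length index for Slc32a1 with Slc17a7 (0.0712) and Slc17a8 (0.189) and for Slc17a7 with Gad2 (-0.0388), and without the 3 lines for Slc17a7 with Slc32a1 (0.0191). The cause was not tested. Leaving out each line in turn kept the 5 called pairs past the threshold, at 0.809 to 0.87 for Gad1 with Gad2, 0.643 to 0.722 and 0.58 to 0.644 for Slc17a8 with Gad1 and Gad2, -0.705 to -0.594 for Slc17a6 with Slc32a1 and -0.615 to -0.425 for Slc17a6 with Gad1. Of the others, Slc17a6 ranged from -0.425 to -0.0352 with Slc17a7 and from -0.502 to -0.226 with Gad2, Slc17a7 from 0.273 to 0.437 with Slc17a8 and from -0.224 to 0.00606 with Slc32a1, and Slc32a1 from -0.0607 to 0.227 with Gad2. Under other size factors, prior count and the normalized table, the spreads, ratios and parental counts moved by less than 1.5 times; with the GC index regressed out the log2 SD of Slc32a1 was 0.133 in place of 0.222. Depth limited Slc17a7 and Slc17a8, with as few as 39 and 59 reads in a library.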
